A study of Mus musculus with 7 samples.

Results

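The genes described here are 10 genes of brain endothelial cells and of the blood-brain barrier: Cldn5, Flt1, Kdr, Tek, Pecam1, Slco1a4, Ly6c1, Itm2a, Vwf and Mfsd2a. They were taken by symbol from a deposited table of 17732 genes, and all 10 were found there, each on 1 line. RNA came from male wild-type mice of the inbred strain 129SvEv, from their medial prefrontal cortex, with no other allele or agent named, and their age is not given in the sources used here. The 3 libraries of the CFC group and the 4 of the SC group were taken after remote memory retrieval. The labels do not spell out these group names, nor do they say whether each library came from a separate animal. The deposited p-values therefore measure the spread between these libraries only.

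Endothelial cells line the blood vessels of the brain. Tight junctions close the gaps between neighbouring cells, transporters carry nutrients, lipids and organic anions across them, and transcytosis through them is kept low. Receptors for vascular endothelial growth factor (VEGF) and for the angiopoietins govern vessel growth and stability, and Wnt signals from neural tissue induce and maintain the barrier. In a piece of cortex these cells are a minority beside neurons and glia, and in bulk RNA fewer endothelial cells and less RNA per cell cannot be told apart.

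The deposited table gives 1 comparison of the groups and no value of a single library, so values below are a mean over libraries or a difference between groups. Neither the labels nor the header name the numerator of the fold changes. A negative log2 fold change is a lower level in that unnamed group, and no group is called higher here. Of the 13060 genes with an adjusted p-value, 48 positive and 19 negative genes were under 0.05 in the authors' deposited table, and the median log2 fold change over all 13060 was -0.0017.

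Promoter sequence is shown for the 4 genes with the lowest unadjusted p-values among the 10, Slco1a4, Itm2a, Tek and Flt1. None of the 4 had an adjusted p-value under 0.05. The DNA upstream of these genes can thus be read beside their values. The sequences are from RefSeq on GRCm38.p6, which held an entry for 8 of the 10 genes. Each is 220 bases, read 5′ to 3′ on the gene's strand, and ends 31 bases before the annotated start. Capitals mark the letters AGGAAG or their reverse complement CTTCCT, a form of the core site of ETS transcription factors, a family long tied to endothelial genes.
Slco1a4 promoter (chr6:141856251-141856470, minus strand): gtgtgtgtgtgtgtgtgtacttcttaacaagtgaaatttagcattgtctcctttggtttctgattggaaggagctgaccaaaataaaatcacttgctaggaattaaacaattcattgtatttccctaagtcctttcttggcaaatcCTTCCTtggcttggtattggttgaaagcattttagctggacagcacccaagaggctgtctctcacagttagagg
Itm2a promoter (chrX:107403391-107403610, minus strand): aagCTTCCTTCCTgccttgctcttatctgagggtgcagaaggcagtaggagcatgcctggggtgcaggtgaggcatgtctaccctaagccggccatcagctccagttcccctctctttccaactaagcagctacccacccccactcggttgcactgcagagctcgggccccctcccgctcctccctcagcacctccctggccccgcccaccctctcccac
Tek promoter (chr4:94739039-94739258, plus strand): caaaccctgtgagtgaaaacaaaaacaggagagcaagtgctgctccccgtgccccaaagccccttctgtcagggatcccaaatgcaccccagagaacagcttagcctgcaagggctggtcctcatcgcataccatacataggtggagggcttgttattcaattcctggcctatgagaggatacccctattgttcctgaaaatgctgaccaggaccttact
Flt1 promoter (chr5:147726042-147726261, minus strand): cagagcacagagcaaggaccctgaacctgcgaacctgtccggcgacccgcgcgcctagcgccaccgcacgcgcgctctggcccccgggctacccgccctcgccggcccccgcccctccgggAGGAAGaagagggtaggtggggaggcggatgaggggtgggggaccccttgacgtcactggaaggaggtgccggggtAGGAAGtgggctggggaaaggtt
The Flt1 and Itm2a windows each held 2 matches, which overlap in Itm2a. The Slco1a4 window held 1 match and the Tek window none. Of the 9 windows of the 8 genes, 4 held the letters, and so did 26.1% of all 32851 windows of the same length and position in the RefSeq set. A match of letters is a description of the sequence and not evidence that a factor binds there. Searched the same way on both strands, the TCF/LEF letters CTTTGA were in 12.6% of all windows and in 1 of the 8 genes, Mfsd2a. The SOX letters ACAATG were in 9.78% of all windows and in 1 of the 8 genes, Slco1a4.

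The cortical neuron genes Slc17a7, Tbr1 and Gad1 had mean counts in the authors' deposited table of 34713, 4331 and 4826. All 10 endothelial genes were detected well above the lowest mean count that received an adjusted p-value, 34.9. Their mean normalized counts in the authors' deposited table ran from 200.1 for Kdr to 1286 for Flt1. These means lay between percentiles 27 and 73.6 of all genes with an adjusted p-value. Long transcripts give more reads than short ones, so levels were compared between genes as mean normalized count per kb of merged exons, with exons from GENCODE M21. On that scale the 10 genes spanned 17.1-fold, and their order differed from that of the raw means.

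Itm2a, a membrane protein of endothelial cells in the brain, had the highest level per kb of merged exons, at 277 mean normalized counts. Cldn5, the main claudin that seals endothelial tight junctions, followed at 172. Mfsd2a, a lysolipid transporter that also holds back transcytosis, was at 158, and Ly6c1, a surface protein anchored by a lipid tail, was at 155. Slco1a4, an organic anion transporter of brain capillaries, was at 124 counts per kb. Flt1, a VEGF receptor that binds its ligand tightly and signals weakly, was at 95.2, above Kdr, the main signalling VEGF receptor, at 22.2. Tek, the angiopoietin receptor, was at 49.1, and Pecam1, an adhesion molecule of endothelial contacts, at 41.0. Vwf, the clotting glycoprotein stored in endothelial granules, was lowest at 16.2 counts per kb. No spread between libraries is given for these levels, so close neighbours in the order, such as Mfsd2a and Ly6c1, were not tested. The order also depends on the length used. For Ly6c1 the merged exons were 1.677 kb and the longest transcript 844 bases. The same lengths were 6.414 kb and 3823 bases for Slco1a4, and 13.504 kb and 6895 bases for Flt1. Merged exons also exceeded the longest transcript in Kdr (9.03 kb, 5924 bases), Pecam1 (6.228 kb, 3441 bases) and Vwf (16.064 kb, 8834 bases). For Itm2a both were 1744 bases, and for Cldn5 both were 1416 bases. Levels per length of the longest transcript were not computed, so the order, with Itm2a highest, is given for merged exons only.

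**Figure D1:**
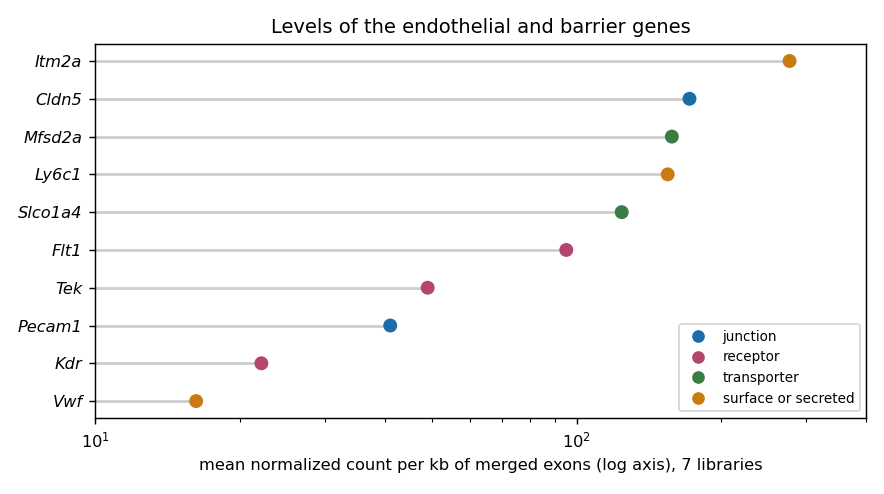
Mean normalized count per kb of merged exons (log axis) for each of the 10 genes, averaged over the 7 libraries. Points are colored by role, and levels run from 16.2 for Vwf to 277 for Itm2a.

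Every gene among the 10 lies on the reference chromosomes of GRCm38, the assembly called mm10 in the submitters' processing notes. In GENCODE M21, exons of the 10 genes overlapped no exon of another gene on either strand. Sequence shared with other transcripts was measured as the share of 50-base windows of a gene's transcripts found in a transcript of another gene. That share was 32.8% for Ly6c1, whose windows recur in Ly6a, Ly6c2 and Ly6i, so the Ly6c1 value is uncertain. It was 1.61% or less for the other 9 genes, 5 of which shared none.

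By the Wald test of the authors' deposited table, 0 of the 10 genes had an adjusted p-value under 0.05. The share of all tested genes under that threshold was 0.513%. The unadjusted p-value was under 0.05 in 4 of the 10, Slco1a4, Itm2a, Tek and Flt1, and all 4 were negative. Over all 13060 genes, 3.54% were negative and 4.56% positive under that unadjusted threshold, and 8.1% were under it with either sign. The authors' deposited table gave 9 of the 10 genes a negative and 1 a positive log2 fold change, and their median was -0.16. Over all tested genes 50.6% were negative. Among the 6088 genes with a mean count in the range of the 10, 52% were negative and the median log2 fold change was -0.0047. The 10 genes were chosen with results of these data known, so their common sign is a description and carries no test.

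**Figure D2:**
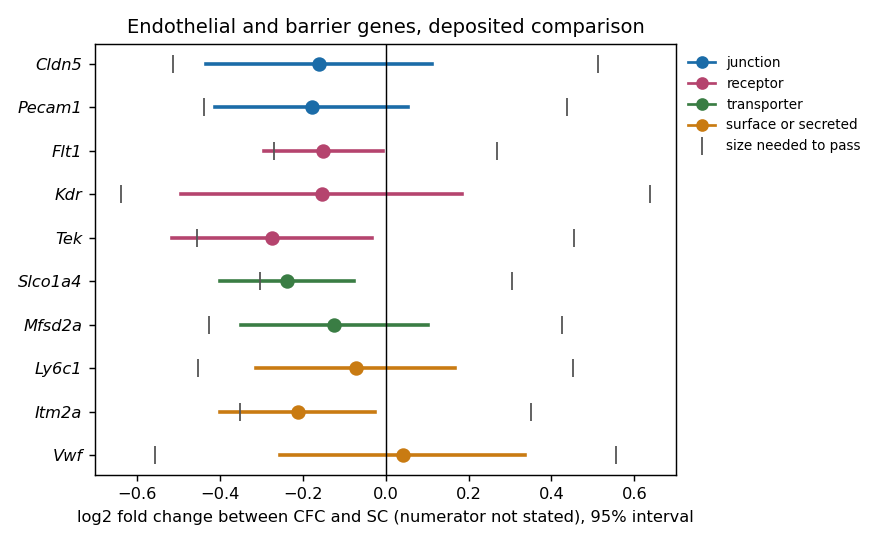
Log2 fold change between CFC and SC (horizontal axis, numerator not stated) with its 95% interval for each gene, colored by role. Grey ticks mark the size of difference that would have reached an adjusted p-value of 0.05, from 0.27 for Flt1 to 0.64 for Kdr, and no point reaches its tick.

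The 2 junction and contact genes were both negative. Cldn5 (ENSMUSG00000041378, chr16:18776847-18778262, a gene of 1 exon) had a log2 fold change of -0.16 ± 0.14 (SE, adjusted p = 0.949) in the authors' deposited table. Its 95% interval ran from -0.43 to 0.11. Pecam1 (ENSMUSG00000020717, chr11:106654217-106750628) had a log2 fold change of -0.18 ± 0.12 (SE, adjusted p = 0.859) in the authors' deposited table. Its interval ran from -0.41 to 0.05. Both intervals thus hold 0 as well as differences of over 0.4 on the negative side.

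The 3 receptor genes were negative as well, and 2 of them had intervals without 0. Tek (ENSMUSG00000006386, chr4:94739289-94874976) had the lowest log2 fold change of the 10, -0.27 ± 0.12 (SE) in the authors' deposited table. Its unadjusted p-value was 0.0266 and after adjustment it was 0.522 in the authors' deposited table. As a ratio between the groups, Tek was at 0.827, with a 95% interval from 0.699 to 0.978. Flt1 (ENSMUSG00000029648, chr5:147561604-147726011) had a log2 fold change of -0.15 ± 0.07 (SE), the smallest error of the 10, in the authors' deposited table. Its ratio was 0.901 with an interval from 0.816 to 0.995, and its p-value was 0.04, or 0.607 after adjustment, in the authors' deposited table. Transcripts for the soluble and membrane forms of Flt1 are counted together in a table by gene. Kdr (ENSMUSG00000062960, chr5:75932827-75978458) had almost the same value, -0.15 ± 0.17 (SE, adjusted p = 0.985), in the authors' deposited table. The interval of Kdr, from -0.49 to 0.19, holds the whole interval of Flt1, from -0.29 to -0.0068.

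Of the 2 transporters, Slco1a4 had the smallest p-value of the 10. Slco1a4 (ENSMUSG00000030237, chr6:141805440-141856199) had a log2 fold change of -0.24 ± 0.08 (SE) in the authors' deposited table. Its ratio was 0.848, with an interval from 0.758 to 0.949. The p-value was 0.004, or 0.237 after adjustment, in the authors' deposited table. Mfsd2a (ENSMUSG00000028655, chr4:122946850-122961188) had a log2 fold change of -0.12 ± 0.12 (SE, adjusted p = 0.966) in the authors' deposited table. Its interval from -0.35 to 0.10 overlaps that of Slco1a4, from -0.40 to -0.08.

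The remaining 3 genes code for surface or secreted proteins, and 2 of them had intervals that hold 0. Itm2a (ENSMUSG00000031239, chrX:107397099-107403376) had a log2 fold change of -0.21 ± 0.10 (SE, unadjusted p = 0.0257) in the authors' deposited table. After adjustment its p-value was 0.519 in the authors' deposited table, and the ratio of Itm2a was 0.863 with an interval from 0.759 to 0.982. Ly6c1 (ENSMUSG00000079018, chr15:75044018-75048830) was near 0, at -0.07 ± 0.12 (SE, adjusted p = 0.998) in the authors' deposited table. Vwf (ENSMUSG00000001930, chr6:125546774-125686679) was the only positive gene, at 0.04 ± 0.15 (SE, adjusted p = 0.999) in the authors' deposited table. Its interval from -0.25 to 0.34 overlaps those of all the other 9 genes. Log2 fold changes over all genes were also regressed on the length and GC content of the longest transcript and on the mean count. The sign of Vwf then turned to negative, at -0.0061. Its Wald statistic, regressed the same way, stayed positive at 0.04.

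Among themselves the 10 log2 fold changes had an SD of 0.09, smaller than the median standard error of a single gene, 0.12. All 10 intervals lay between ratios of 0.699 and 1.26, so each excludes a difference of 1.5-fold or more in either direction. The smallest absolute Wald statistic of a gene under the adjusted threshold was 3.68, and the Wald statistic of Slco1a4 was -2.88. At that limit a difference of 1.2-fold in Flt1 or 1.23-fold in Slco1a4 would have passed, and 1.56-fold would have been needed in Kdr.

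The standard errors of the 10 genes were close to those of other genes of their abundance. Divided by the running median of genes of similar mean count, they ran from 0.963 for Tek to 1.26 for Kdr, with a median of 1.02. For 10 oligodendrocyte markers the same ratio had a median of 6.63. All 10 of those markers were positive, with a median log2 value of 1.28, and none had an adjusted p-value under 0.05 in the authors' deposited table. The part of this shift in the values of the endothelial genes was not tested.

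**Figure D3:**
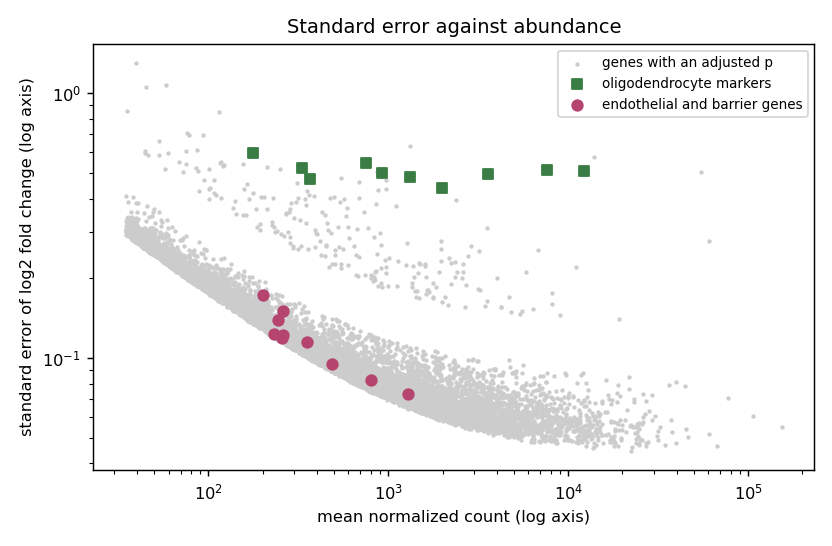
Standard error of the log2 fold change against mean normalized count (both log axes) for all genes with an adjusted p-value, the 10 endothelial and barrier genes and 10 oligodendrocyte markers. The endothelial genes lie within the main band, and the oligodendrocyte markers lie far above it.

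Other genes of the same cells and pathways were taken from 11 lists on endothelial identity, junctions, receptors, transporters, regulators and vessel types. Beside the 10, the lists held 131 genes, of which 129 were in the table and 109 had an adjusted p-value. None of the 109 was under 0.05 after adjustment, and 4 were at an unadjusted p-value under 0.05, 3 negative and 1 positive. Over all 13060 genes, 8.1% were under that unadjusted threshold, 3.54% negative and 4.56% positive, so the 4 do not stand out from all genes. Of the 109, 70 were negative and 39 positive, or 64.2% negative, and their median log2 value in the authors' deposited table was -0.06. That median lay between the -0.16 of the 10 and the -0.0017 of all genes.

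The transporter list had 17 other genes with an adjusted p-value, 12 of them negative, and their median log2 value in the authors' deposited table was -0.06. Slco1c1, which carries thyroid hormone across the barrier, had a log2 fold change of -0.23 ± 0.08 (SE, adjusted p = 0.246) in the authors' deposited table. Its gene lies 235 kb from that of Slco1a4 on chromosome 6, and the log2 fold change of Slco1a4 was -0.24 in the authors' deposited table. Slc38a3, a glutamine transporter that astrocytes and neurons also express, was at -0.17 ± 0.08 (SE, adjusted p = 0.474) in the authors' deposited table. Slc2a1, the glucose transporter of the barrier, was at -0.05 ± 0.08 (SE), and Abcb1a, the drug efflux pump, at -0.14 ± 0.10 (SE), in the authors' deposited table.

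Beside Cldn5, 12 junction genes had an adjusted p-value, 7 negative and 5 positive, and their median was -0.010 in the authors' deposited table. F11r, a junctional adhesion molecule, was at 0.24 ± 0.18 (SE), and the cadherin Cdh5 at -0.15 ± 0.13 (SE), in the authors' deposited table. Tjp1, the scaffold protein ZO-1 of many cell types, was at 0.03 ± 0.06 (SE) in the authors' deposited table. The junction list thus showed no common sign.

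In the list of VEGF and angiopoietin signalling, 10 genes beside Flt1, Kdr and Tek had an adjusted p-value, 6 negative and 4 positive. The ligand Vegfa was at -0.02 ± 0.08 (SE), and Angpt1, the ligand that activates Tek, at 0.03 ± 0.16 (SE), in the authors' deposited table. Both values were within 1 standard error of 0, and the Wald statistic of Tek, its log2 fold change over its error, was -2.22. The interval of Angpt1, from -0.29 to 0.35, overlaps that of Tek, from -0.52 to -0.03. Angpt2 of the same list was at 0.83 ± 0.56 (SE), with a mean count of 11.4. The difference between Tek and these genes was not tested. Svep1, a large matrix protein of the list, had the lowest p-value there, with a log2 fold change of 1.47 ± 0.47 (SE) in the authors' deposited table. Its mean count of 22.7 was too low for an adjusted p-value in the authors' deposited table.

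The list of endothelial identity shares no gene with the 10. Of its 20 genes with an adjusted p-value, 16 were negative and 4 positive. Their median log2 value in the authors' deposited table was -0.13. Of all 22 genes of the list, 17 were negative. None of the 20 was under an unadjusted p-value of 0.05. The lowest p-values were those of Mcam, at 0.69 ± 0.39 (SE), and of the phosphatase Ptprb, at -0.16 ± 0.09 (SE), in the authors' deposited table. Ptprb removes phosphate from Tek. The standard error of Mcam was 2.43 times that of genes of similar abundance, where the median over the 20 was 1.04 times. Ly6e was at -0.13 ± 0.08 (SE) in the authors' deposited table.

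Among endothelial transcription factors, 9 of 13 genes were negative, and their median log2 value in the authors' deposited table was -0.14. Ets1, an ETS factor also made by lymphocytes, had a log2 fold change of -0.40 ± 0.14 (SE, adjusted p = 0.286) in the authors' deposited table. Tbx1, a T-box factor, was at -0.75 ± 0.35 (SE, unadjusted p = 0.0305) with a mean count of 25.1, too low for an adjusted p-value, in the authors' deposited table. With the 3 genes that lacked an adjusted p-value, 12 of 16 were negative. Counted the same way, 6 of 12 VEGF and angiopoietin genes beside Flt1, Kdr and Tek were negative. Over all the lists 82 of 129 were. Epas1, a hypoxia-inducible factor, was at -0.12 ± 0.06 (SE) in the authors' deposited table. The list of Wnt signalling and the barrier programme was balanced. Of its 18 genes with an adjusted p-value, 10 were negative and 8 positive in the authors' deposited table, with a median of -0.0043. Foxf2, a factor of pericytes and endothelium, was lowest there, at -0.48 ± 0.26 (SE) in the authors' deposited table.

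The list of caveolae and transcytosis held 8 genes beside Mfsd2a, 6 negative and 2 positive. On that of endothelial activation, 4 genes beside Pecam1 and Vwf had an adjusted p-value, 2 of each sign. None of these was under an unadjusted p-value of 0.05. By vessel type, 4 of 6 arterial genes with an adjusted p-value were negative, and 9 of all 13 arterial genes were. The arterial gene Unc5b, a netrin receptor, was positive at 0.81 ± 0.36 (SE, adjusted p = 0.488) in the authors' deposited table. Its standard error was 2.99 times that of genes of similar abundance, unlike those of the 10. Beside Vwf, 3 of 6 venous genes with an adjusted p-value were negative, and 5 of all 9 venous genes were. Beside Slco1a4, Itm2a and Mfsd2a, 3 of 5 capillary genes were negative.

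**Figure D4:**
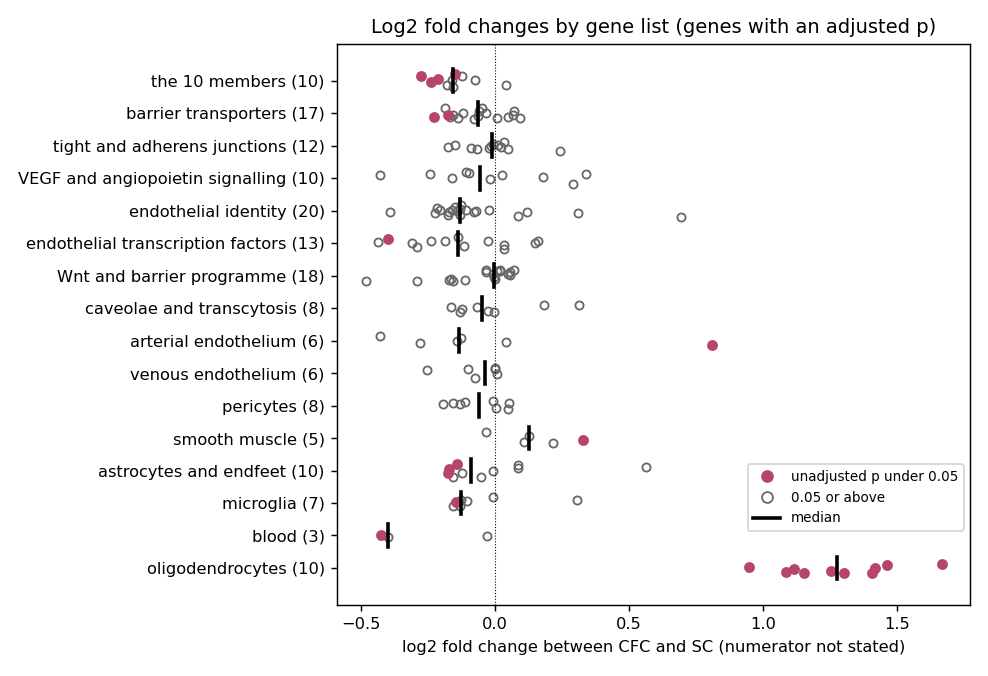
Log2 fold change between CFC and SC (horizontal axis, numerator not stated) of each gene with an adjusted p-value, by list. The 10 genes form the top line and are left out of the endothelial lists under it. Bars are medians, -0.16 for the 10 and 1.28 for the oligodendrocyte markers, and filled points are genes at an unadjusted p-value under 0.05.

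Markers of the cells around the vessels did not share 1 sign. Of 8 pericyte markers with an adjusted p-value, 5 were negative, the median was -0.06, and Pdgfrb was at 0.0041 ± 0.09 (SE), in the authors' deposited table. Of 5 smooth muscle markers with an adjusted p-value, 4 were positive, and the median was 0.13 in the authors' deposited table. The kinase Mylk was at 0.33 ± 0.14 (SE, adjusted p = 0.435) in the authors' deposited table. All 3 fibroblast markers with an adjusted p-value were positive, and their median log2 value in the authors' deposited table was 0.27.

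Markers of microglia and astrocytes were mostly negative, as the 10 genes were. Of 7 microglia markers 6 were negative, and their median log2 value in the authors' deposited table was -0.13. Csf1r, the receptor that microglia need to survive, was at -0.14 ± 0.07 (SE, adjusted p = 0.533) in the authors' deposited table. Of 10 astrocyte markers 7 were negative, the median was -0.09, and Aldoc was at -0.17 ± 0.06 (SE, adjusted p = 0.16), in the authors' deposited table. The first marker of each list was near 0, P2ry12 at -0.0073 ± 0.11 (SE) and Aqp4 at -0.0081 ± 0.10 (SE). The 1 positive microglia marker, Aif1, was at 0.31 ± 0.23 (SE). Values of the 3 positive astrocyte markers ran up to 0.56 ± 0.43 (SE), that of Gfap. Neither list held a gene under an adjusted p-value of 0.05. The difference between these lists and the 10 genes was not tested.

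Red blood cell genes were negative too, in all 3 cases with an adjusted p-value. The globin gene Hba-a2 was at -0.42 ± 0.20 (SE, adjusted p = 0.595), and its near copy Hba-a1 at -0.40 ± 0.32 (SE), in the authors' deposited table. Reads of the pair may be divided between them. The standard error of Hba-a1 was 2.44 times that of genes of similar abundance. The third gene, Alas2, was near 0, at -0.03 ± 0.26 (SE). Of 5 platelet genes, which matter because platelets also carry Pecam1 and Vwf, 2 were in the table, with mean counts of 68.6 for Itga2b and 1.81 for Gp9. Perivascular macrophage genes had mean counts from 1.95 to 23.1, and none received an adjusted p-value. Of 6 choroid plexus genes, 1 had an adjusted p-value, Kl, at 0.59 ± 0.22 (SE, adjusted p = 0.322) in the authors' deposited table, and Ttr was at 1.86 ± 1.11 (SE) with no p-value. Aqp1 of the same list went the other way, at -1.19 ± 0.60 (SE, unadjusted p = 0.0469) and a mean count of 9.07, too low for an adjusted p-value, in the authors' deposited table. The part of blood, choroid plexus, microglia and astrocytes in the values of the 10 genes was not tested.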

How the data were processed

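Polyadenylated RNA of 7 libraries (3 CFC, 4 SC) was measured, from 100 ng of RNA with the KAPA mRNA HyperPrep kit, per the labels' protocols. Per the submitters' processing notes, Trimmomatic, Subread, DESeq2 and mm10 were used, and roles, versions and strand setting are not given in the sources used here. Per the file headers, the authors deposited the mean normalized count (a signal averaged over libraries), log2 fold change with standard error, Wald statistic (a score), p-value and adjusted p-value of each gene. Depth per library is unknown, and no value per library was used. The Wald statistic equalled the fold change over its error. Tests are the authors' own, with adjustment over all genes and a threshold of 0.05. Intervals are 95% normal intervals. Running medians span 501 genes. GENCODE M21 held 99.97% of the IDs. Python 3.11.15, numpy 2.4.6, scipy 1.17.1 and pandas 2.3.3 were used, and the calculations were tested on simulated data. The members and lists were chosen with earlier results of these data known. Beside the 10 members, list genes were named from those with an adjusted p-value under 0.05 or among the 3 lowest p-values of a list. For lists of other cells the first marker was also eligible. Not every gene that met these rules was named. Slc2a1, Abcb1a, Tjp1, Vegfa, Angpt1, Angpt2, Gfap, Alas2 and the cortical neuron genes were named after their values were seen. Alternatives were other adjustments, thresholds, filters, centrings, a mean weighted by inverse variance and a regression on the length, GC content and abundance of the transcripts. Some items are not reported here, and the microglia list was counted without 1 gene.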

Additional observations from a re-analysis of the deposited data

How the results depend on the processing

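No paired analysis was possible because only values over all libraries were deposited in the file used, and for the same reason a replicate block, a left-out library and another count test were not run. The count of 0 of the 10 genes under an adjusted p-value was the same at a threshold of 0.1 and with no filter on the mean count. It was also the same with a mean count of at least 100, and after regression on the length, GC content and abundance of the transcripts. A Bonferroni adjustment and a null of a 1.2-fold change gave 0 too. Both are stricter than the main test, so neither could have raised the count. The lowest adjusted p-value among the 10 was 0.175 after that regression and 0.273 with no filter. The count at an unadjusted p-value under 0.05 stayed at 4 under regression, at a threshold of 0.1 and after division by the robust SD of 1.01. The median log2 fold change of the 10 ran from -0.19 to -0.16 over the centrings and the regression. Their mean weighted by inverse variance was -0.17. Of 30 recomputed values of single genes, 1 changed sign, that of Vwf, and the largest move was 0.05 on the log2 scale. For each gene, 1 of the alternatives only subtracted the median of all genes, -0.0017. Whether 1 library decides a value was not tested.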
